A study of Manihot esculenta with 4 samples.

Results

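A group of 130 cassava genes was higher under drought than in control leaves in the cultivar KU50 and close to level in the cultivar Xinxuan048. The members were chosen by their FPKM, a fragment level scaled to transcript length and library size, in 4 leaf libraries of Manihot esculenta. A gene qualified if its locus was placed on a chromosome and at least 500 bases long, and if its mean over the libraries was at least 1 and below 300 FPKM. Of 27146 genes listed in at least 1 library, 18602 met these limits and are called eligible. A member had a log2 ratio of drought to control, taken on FPKM + 1, of at least 1.5 in KU50 and strictly between -0.5 and 0.5 in Xinxuan048. The 4 groups were KU50 under normal conditions, KU50 under drought stress, Xinxuan048 under normal conditions and Xinxuan048 under drought stress, all from leaf. With 1 library in every group there is no replicate error, and no comparison was tested. The labels used here give no age, no length or severity of drought and not how many plants a library pooled.

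Cassava is a tropical root crop known for yielding under little rain, and it closes its stomata early when water runs short. In leaves that lose water, the hormone abscisic acid accumulates and releases protein kinases from inhibition. These kinases activate anion channels of the guard cells, after which the stomatal pore closes, and they activate transcription factors, whose targets include dehydrins and other protective proteins, sugar and proline metabolism and water channels. The files, however, identify genes only by locus tags. None of the 27146 tags matched any of 34312 RefSeq cassava genes, so no gene is given a name or role here, and markers of leaf cell types were not examined. Gene sequences were not used here.

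The libraries were alike in breadth, with 24405 to 25336 genes listed and FPKM totals between 611226 and 636034. A gene absent from a library's file is called unlisted and was taken as 0 FPKM. In whole leaves, fewer cells of a type and less RNA per cell cannot be told apart. The median drought log2 ratio of all eligible genes was 0.31 in KU50 and 0.37 in Xinxuan048. The Xinxuan048 window, from -0.5 to 0.5, was thus centred 0.37 log2 units below that cultivar's median. Under TMM scaling, a trimmed mean that centres the ratios, the medians were 0.00 and 0.03. Chromosome numbers come from the tags and positions from the deposited files, counted from 1. The sources used here do not give the genome build.

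In KU50, 663 eligible genes reached the log2 ratio of 1.5, which is 3.56% of the eligible genes. In Xinxuan048 550 genes did, or 2.96%, and 53.7% of eligible genes lay within the window of -0.5 to 0.5 there. Of the 663, 233 also reached 1.5 in Xinxuan048, 140 lay between 1 and 1.5 and 142 between 0.5 and 1. The 130 members made up 19.6% of the 663, and the last 18 genes had a Xinxuan048 ratio of -0.5 or lower. The 130 are thus the lower part of a graded spread and not a detached group, as the plot of the responses of both cultivars shows. The mirror group, at least 1.5 in Xinxuan048 and inside the window in KU50, held 47 genes.

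**Figure D1:**
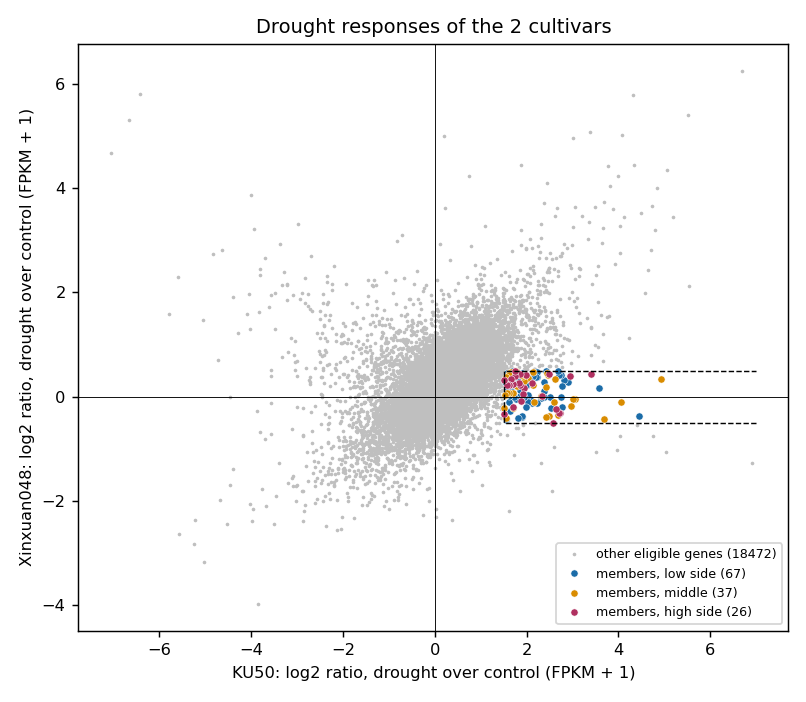
Log2 ratio of drought to control on FPKM + 1 in KU50 (horizontal) and Xinxuan048 (vertical), 1 point per eligible gene. Coloured points are the 130 members, in 3 classes by their level in Xinxuan048, and the dashed lines are the limits that chose them; the grey cloud of 18472 other genes continues across the limits.

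The limits cut through genes of nearly equal values. The lowest KU50 ratio inside was 1.501 for MANES_06G043300, which had 0.560 FPKM in control and 3.42 under drought in KU50, against 0.471 and 0.274 in Xinxuan048. Just outside stood MANES_15G055900 at 1.4998, with 3.32, 11.2, 5.59 and 7.74 FPKM in the same order of libraries. At the upper edge of the Xinxuan048 window, MANES_14G022300 was inside at 0.496 and MANES_11G102900 outside at 0.501. At the lower edge, MANES_05G198600 was inside at -0.495 and MANES_09G126000 outside at -0.512. Of the members, 17 had a KU50 ratio below 1.6 and 25 had a Xinxuan048 ratio of at least 0.4, whereas 6 had one of -0.4 or lower.

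Most members were weakly expressed in KU50 control leaves and moderately expressed in KU50 drought leaves. The median of the members was 1.61 FPKM in control and 9.91 under drought in KU50, against 3.20 and 3.90 in Xinxuan048. Over all eligible genes the medians were 9.32, 11.9, 8.13 and 11.0 FPKM in the same order. Below 1 FPKM stood 49 members in KU50 control, 39 in Xinxuan048 control and 38 in Xinxuan048 drought, and none in KU50 drought, where the lowest member had 2.23 FPKM. At least 10 FPKM were reached by 16 members in KU50 control against 64 in KU50 drought, and at least 100 FPKM by 6 members in KU50 drought. A rise from KU50 control to KU50 drought follows from the rule. So does the absence of members below 1 FPKM in KU50 drought, because such a gene cannot reach the required KU50 ratio. These level counts are not given for all eligible genes. The median KU50 ratio was 1.91 on the log2 scale, 57 members had at least 2 and 8 at least 3. The median Xinxuan048 ratio was 0.18, with 86 members above 0, 4 at exactly 0 because both Xinxuan048 libraries left them unlisted, and 40 (30.8%) below 0, beside 23.1% of eligible genes. That direction turned with the scaling. The median of the 130 was -0.11 under TMM, -0.04 under upper-quartile scaling and -0.19 relative to the median of eligible genes. In that order 79, 72 and 97 members were below 0, or 60.8%, 55.4% and 74.6%. The shares of eligible genes below 0 rose too, to 47.7%, 42.0% and 50%.

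The members differed in where the Xinxuan048 libraries stood relative to the KU50 libraries. The mean log2 level of both Xinxuan048 libraries was placed on a scale that is 0 at KU50 control and 1 at KU50 drought. On that scale 67 members lay below 0.333 and are called the low side, 26 lay above 0.667 and are called the high side, and 37 lay in the middle. A low-side gene was thus near the KU50 control level, or below it, in Xinxuan048 on average. A high-side gene was near the KU50 drought level, or above it. These classes use the values that chose the members and are a description. They depend on the pseudocount, since the high side held 69 of 182 members with a pseudocount of 0.1 and 7 of 61 with one of 5.

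**Figure D2:**
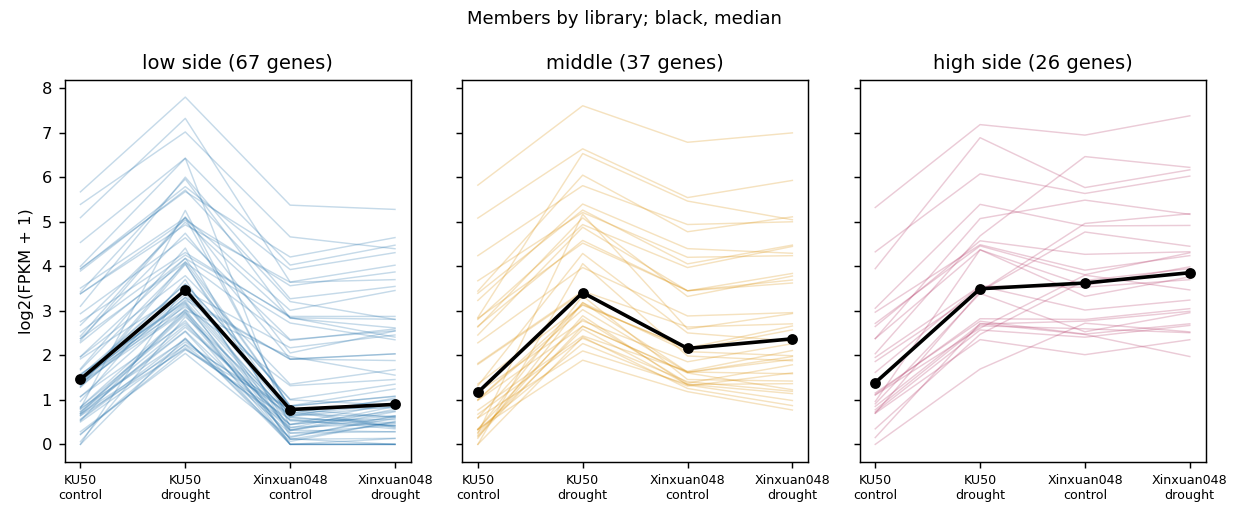
Level of each member, log2(FPKM + 1), in the 4 libraries, in panels for the 67 low-side, 37 middle and 26 high-side genes. Thin lines are genes and the black line joins the medians, which peak in KU50 drought on the low side and are low in KU50 control alone on the high side.

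By the medians of the low side, KU50 drought stood alone above the other libraries. The median low-side gene had 1.75 FPKM in control and 10.1 under drought in KU50, against 0.722 and 0.864 in Xinxuan048. The most abundant was MANES_07G027900, at 2632833 to 2633470 of chromosome 7, with 50.1 FPKM in control and 223 under drought in KU50, against 40.6 and 37.9 in Xinxuan048. Its log2 ratios were 2.13 in KU50 against -0.10 in Xinxuan048, and 3 of the libraries lay within 37.9 to 50.1 FPKM. MANES_06G160100, at 26194411 to 26197948 of chromosome 6, had 33.2, 160, 11.5 and 15.3 FPKM, KU50 before Xinxuan048 and control before drought. MANES_10G144200, at 25578206 to 25581342 of chromosome 10, stood at 41.1 and 129 FPKM in KU50 against 24.4 and 20.1 in Xinxuan048. Both were lower in each Xinxuan048 library than in KU50 control, and the cultivars were farther apart under drought. MANES_10G119000, at 23087356 to 23091370 of chromosome 10, stood at 22.3 and 85.4 FPKM in KU50 against 15.3 and 21.3 in Xinxuan048.

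The lowest Xinxuan048 position of all members belonged to MANES_04G067700, a locus of 746 bases at 19631327 to 19632072 of chromosome 4. It had 15.0 FPKM in control and 85.3 under drought in KU50, against 0.290 and 0.809 in Xinxuan048. It was the 1 member with at least 5 FPKM in both KU50 libraries and under 1 in both Xinxuan048 libraries, and was chosen after its values were seen. Its Xinxuan048 ratio of 0.49 on the FPKM + 1 scale lay inside the window, although the FPKM themselves differed 2.79-fold. In 9 members listed in both Xinxuan048 libraries the Xinxuan048 FPKM were at least 2-fold higher under drought, all with a Xinxuan048 mean of 0.639 FPKM or less. In 2 others, MANES_15G129700 among them, the Xinxuan048 FPKM under drought were 0.5 times those in control or lower. Both had under 1 FPKM in each Xinxuan048 library. At such levels the pseudocount of 1 holds the log2 ratio near 0, so a level response in Xinxuan048 was not shown for any of these members.

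By the medians of the high side, KU50 control stood alone below the other libraries. The median high-side gene had 1.65 FPKM in control and 10.3 under drought in KU50, against 11.4 and 13.5 in Xinxuan048. MANES_04G115000, at 24700768 to 24702483 of chromosome 4, stood at 39.1 and 145 FPKM in KU50, control before drought, against 123 and 166 in Xinxuan048. MANES_03G090500, at 15490544 to 15492109 of chromosome 3, stood at 14.4 and 118 FPKM in KU50 against 53.7 and 71.1 in Xinxuan048. In both genes Xinxuan048 control lay far above KU50 control. MANES_14G026100, at 2194488 to 2197094 of chromosome 14, stood at 19.1 and 66.7 FPKM in KU50 against 48.9 and 64.4 in Xinxuan048. MANES_02G051600, 7301 bases at 3900133 to 3907433 of chromosome 2, stood at 7.34 and 41.1 FPKM in KU50 against 29.1 and 29.3 in Xinxuan048, where its log2 ratio was 0.01.

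In 8 members, all of the high side, both Xinxuan048 libraries lay above KU50 drought and KU50 control was the lowest. That is 6.15% of the members, near the 4.44% of all eligible genes. With a pseudocount of 0.1, 26 members had both Xinxuan048 libraries above KU50 drought, and with one of 5 only 2 had. Chosen after their values were seen, MANES_18G146500 stood at 3.10 and 24.8 FPKM in KU50 against 87.6 and 73.9 in Xinxuan048, and MANES_05G166900 had 2.64 and 9.86 in KU50 and 30.3 and 35.4 in Xinxuan048. For these genes the drought level of KU50 was still well under the control level of Xinxuan048. MANES_07G060900, at 8051050 to 8051883 of chromosome 7, stood at 0.626 and 9.82 FPKM in KU50 against 26.4 and 20.9 in Xinxuan048, and was likewise chosen afterwards.

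Middle members had Xinxuan048 levels between those of the KU50 libraries. The median was 1.25 FPKM in control and 9.64 under drought in KU50, against 3.46 and 4.18 in Xinxuan048. MANES_01G250800, at 32715295 to 32720775 of chromosome 1, was the most abundant of them, with 55.8 and 195 FPKM in KU50 against 110 and 127 in Xinxuan048. MANES_07G134600, at 25889368 to 25892426 of chromosome 7, stood at 33.0 and 99.0 FPKM in KU50 against 45.8 and 60.1 in Xinxuan048. For both genes the Xinxuan048 libraries were close together and each KU50 library lay outside them.

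Most of the highest KU50 ratios belonged to genes with under 1 FPKM in KU50 control. MANES_08G019800, a locus of 625 bases at 1838589 to 1839213 of chromosome 8, had 0.184 FPKM in control and 35.1 under drought in KU50, against 5.03 and 6.68 in Xinxuan048. Its log2 ratio was 4.93 in KU50, against 0.35 in Xinxuan048. MANES_15G129700, 5210 bases at 9866889 to 9872098 of chromosome 15, stood at 0.747 and 37.3 FPKM in KU50 against 0.667 and 0.296 in Xinxuan048. Its KU50 ratio of 4.45 stood against -0.36 in Xinxuan048, and control leaves of both cultivars had nearly the same level. MANES_02G124800 had a KU50 ratio of 3.69 from a higher base, with 6.22 and 91.9 FPKM in KU50 against 43.3 and 32.1 in Xinxuan048. MANES_11G014800 had a ratio of 3.41, with 0.950 and 19.8 FPKM in KU50 against 9.03 and 12.6 in Xinxuan048. MANES_10G127300 and MANES_08G002700 had ratios of 3.05 and 3.01 and at most 0.255 FPKM in KU50 control, and 1.68 to 2.09 FPKM in the Xinxuan048 libraries. The other two of the 8 highest ratios, 4.06 for MANES_15G189500 and 3.57 for MANES_11G159200, rest on a KU50 control that was unlisted.

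Some members were unlisted in a library, and for these values are given in place of a fold. All 4 libraries listed 120 of the 130 members. MANES_15G189500 was unlisted in KU50 control, had 15.7 FPKM in KU50 drought, and 2.96 and 2.68 in Xinxuan048 control and drought. MANES_11G159200 was unlisted in KU50 control too, had 10.9 FPKM in KU50 drought, and 0.194 and 0.345 in Xinxuan048. In the other direction, MANES_17G079600, MANES_17G079800 and MANES_07G030300 were unlisted in both Xinxuan048 libraries and had 7.24, 12.1 and 5.87 FPKM in KU50 drought. MANES_10G066700 was listed in KU50 drought alone, at 4.23 FPKM. It and MANES_07G030300 were chosen after their values were seen. Being unlisted in both Xinxuan048 libraries meets the Xinxuan048 limit by construction, and shows no response that could be called level.

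The differences between cultivars under one condition follow in part from the choice of members, because a KU50 ratio of 1.5 and a Xinxuan048 ratio below 0.5 force the cultivars apart in control, in drought or in both. In drought leaves 85 members, 65.4%, were below KU50 by 2-fold or more in Xinxuan048, on the FPKM + 1 scale, beside 3.78% of all eligible genes. In control leaves 41 members, 31.5%, were above KU50 by 2-fold or more in Xinxuan048, beside 2.11%; the 41 became 88 with a pseudocount of 0.1 and 9 with one of 5. In the opposite directions the shares were near those of all eligible genes. In Xinxuan048 drought 4 members, 3.08%, were at least 2-fold higher, beside 2.53%, and in Xinxuan048 control 7, or 5.38%, were at least 2-fold lower, beside 6.45%. KU50 drought was the highest of the 4 libraries for 118 members, beside 46.7% of eligible genes. KU50 control was the lowest for 79, beside 24.5%. Both Xinxuan048 libraries lay below KU50 control, with KU50 drought the highest, for 43 members, beside 10.6%. With 1 library per group, a response of the cultivar and a property of its single library cannot be told apart.

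**Figure D3:**
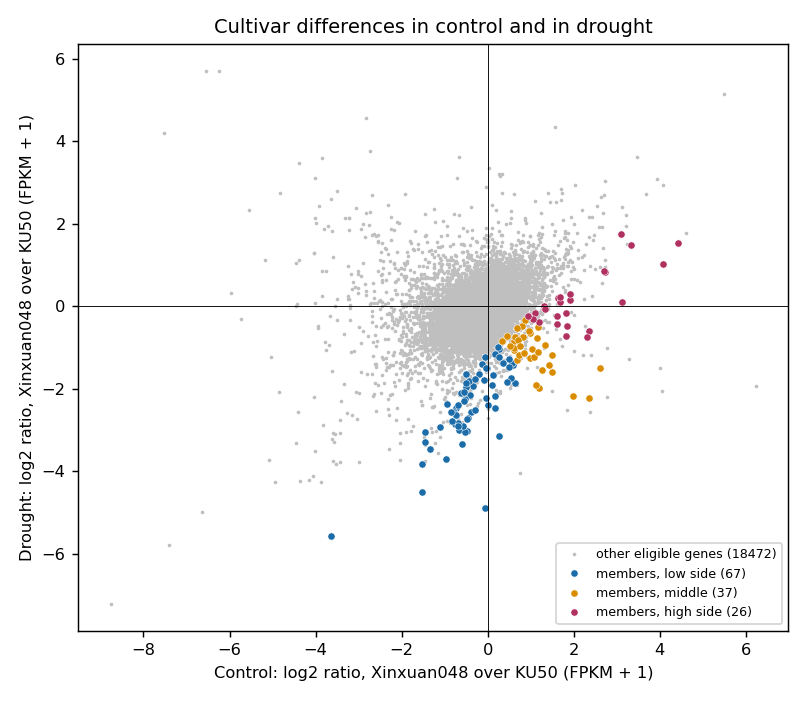
Log2 ratio of Xinxuan048 to KU50 on FPKM + 1 in control (horizontal) and in drought (vertical) for eligible genes. Low-side members lie low and around the vertical line at 0, high-side members lie to its right around the horizontal line, and the limits that chose the members keep each of them more than 1 log2 unit lower in drought than in control.

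Members lay on all 18 chromosomes, in unequal shares. Position was not used to choose them beyond being placed. The share of eligible genes that were members was 0.699% over the genome, 1.37% on chromosome 10 (11 of 805), 1.23% on chromosome 7 (9 of 733) and 1.02% on chromosome 6 (11 of 1081). It was 0.0879% on chromosome 9, where 1 of 1138 eligible genes was a member. Chromosome 9 had 31 of its eligible genes at or above the KU50 limit, 2.72%, the lowest of the 18 percentages. Its member, MANES_09G125700, stood at 0.569 and 5.21 FPKM in KU50 against 0.531 and 0.335 in Xinxuan048, and was named after its values were seen. Under the other settings tried, chromosome 9 held 0 to 5 members, chromosome 10 held 3 to 13, chromosome 7 held 4 to 16 and chromosome 6 held 5 to 15. Chromosome 10 had 3 with a pseudocount of 5 or a mean of at least 5 FPKM, and chromosome 7 had 5 under TMM scaling.

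**Figure D4:**
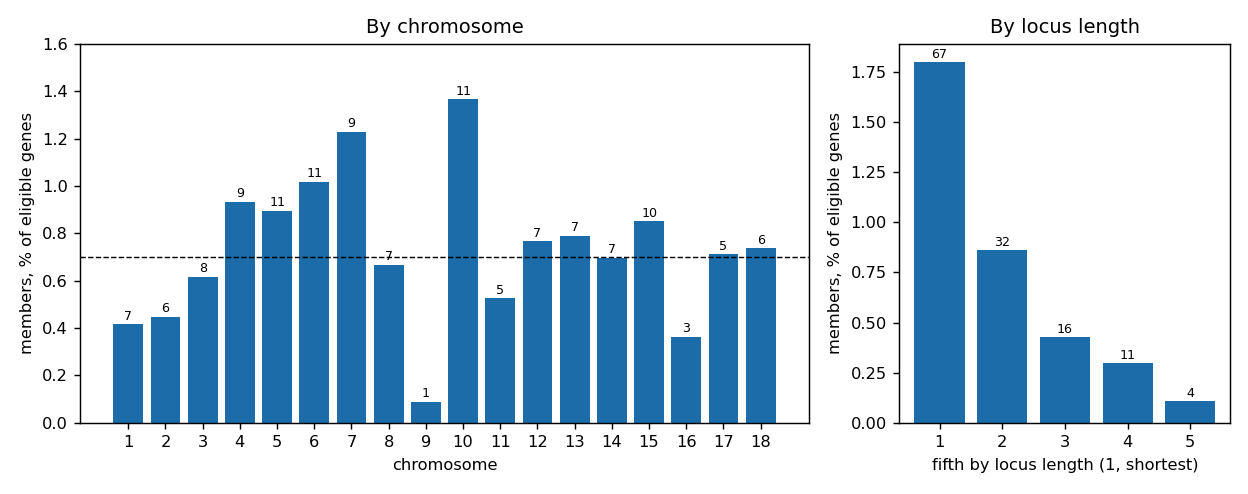
Members as a percentage of eligible genes on each chromosome (left, dashed line at the overall 0.699%) and in 5 groups of eligible genes of near equal size by locus length (right). Numbers above the bars count members: 1 on chromosome 9 and 11 on chromosome 10, and 67 in the shortest group against 4 in the longest.

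Several members stood side by side. Among eligible genes in chromosome order, 14 members formed 7 pairs with no other eligible gene between them, and 20 members lay within 100000 bases of another member. Members were 0.699% of eligible genes. How many such pairs their density alone would give was not tested. The eligible genes directly beside a member but not themselves members numbered 243, and 22 of these, 9.05%, reached a KU50 ratio of 1.5, beside 2.89% of all eligible non-members. In Xinxuan048 8 of the 243, 3.29%, reached 1.5, beside 2.98%. Of the 22, 20 stayed below 1.5 in Xinxuan048, beside 300 of the 533 eligible non-members past the KU50 limit. With a pseudocount of 5, 0 of 101 neighbours reached the limit, beside 0.922% of non-members, and 15 of the 61 members then stood beside another member. The files do not say how fragments that map to several like copies were assigned, so the values of neighbouring copies may share fragments, which was not tested.

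A run of such genes lay on chromosome 7 between 2521526 and 2633470. MANES_07G027100 stood at 4.20 and 25.8 FPKM in KU50, control before drought, against 2.78 and 3.09 in Xinxuan048. MANES_07G027700 stood at 13.9 and 51.6 FPKM in KU50 against 8.25 and 6.003 in Xinxuan048, and MANES_07G027900 has the values given above. All 3 were members of the low side. MANES_07G027800, between the last 2, stood at 38.9 and 139 FPKM in KU50 against 16.9 and 10.8 in Xinxuan048, and missed the Xinxuan048 window at -0.60. MANES_07G027000, a locus of 392 bases and so not eligible, stood at 90.4 and 350 FPKM in KU50 against 35.0 and 27.2 in Xinxuan048. MANES_07G027500 and MANES_07G027600, also in the stretch, were listed in KU50 control alone, under 0.1 FPKM. The 5 expressed genes were all higher under drought in KU50, which the rule fixed for the 3 members. Of the 5 genes, 4, all but MANES_07G027100, were lower under drought in Xinxuan048. The Xinxuan048 ratio of MANES_07G027100 was 0.11 with the FPKM as deposited and -0.19 under TMM scaling. Flanking genes of the run did not share the pattern: MANES_07G026700 had 8.68 and 7.05 FPKM in KU50 and MANES_07G028000 had 2.32 and 2.85. This run and the next were described after their values were seen.

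A second run lay on chromosome 6, from MANES_06G160100 to MANES_06G160900. Members there were MANES_06G160100, MANES_06G160800 with 5.23 and 33.1 FPKM in KU50 against 9.03 and 12.8 in Xinxuan048, and MANES_06G160900 with 1.64 and 9.39 in KU50 and 0.808 and 1.12 in Xinxuan048. Between them, MANES_06G160300, MANES_06G160500 and MANES_06G160600 had KU50 ratios of 1.85, 2.63 and 2.53 and Xinxuan048 ratios of 0.70, 0.58 and 0.70, just above the window. So 6 of the 9 listed tags of that stretch reached the KU50 limit, beside 3.56% of eligible genes, and none reached it in Xinxuan048. The members among them did so by the rule, and the stretch was drawn from member to member. MANES_06G160400 in the same stretch was higher in Xinxuan048 than in KU50 under both conditions, with 1.79 and 4.83 FPKM in KU50 against 11.9 and 12.3 in Xinxuan048.

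**Figure D5:**
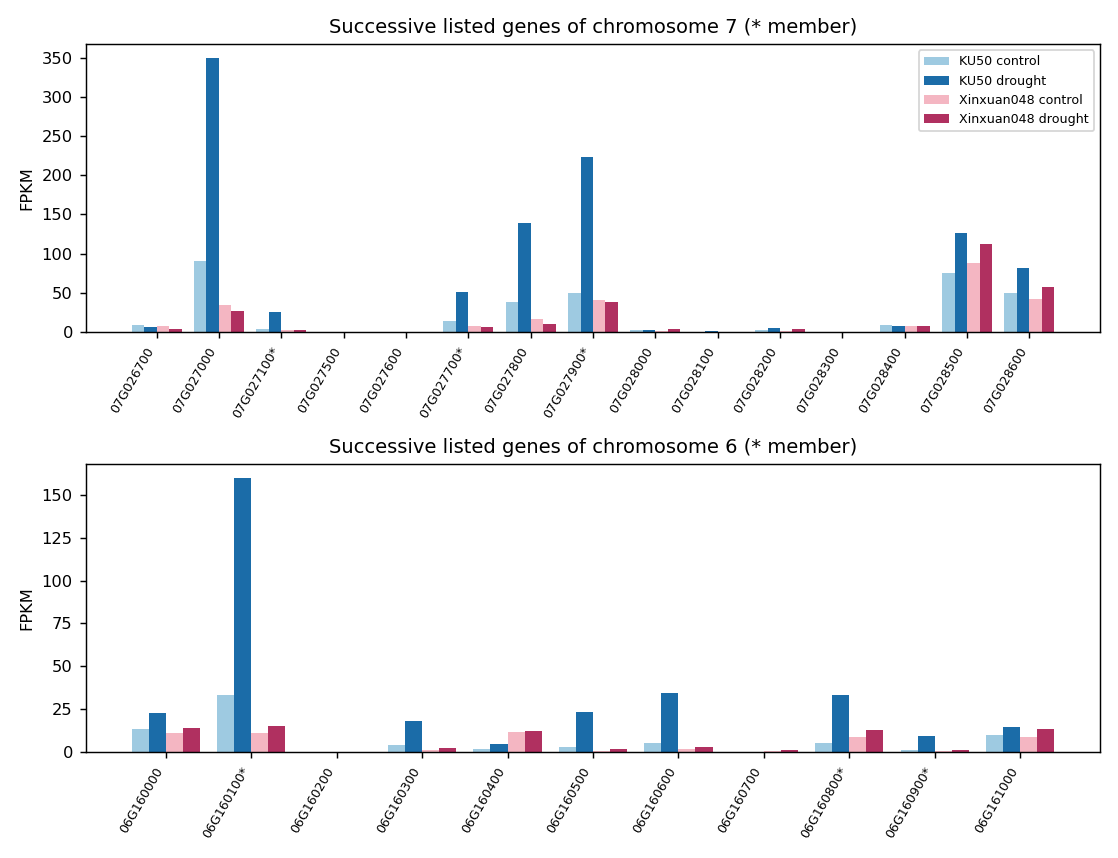
FPKM in the 4 libraries for successive listed genes of the chromosome 7 run (top) and the chromosome 6 run (bottom), with members starred. KU50 drought is the tallest bar of every starred gene, and reaches 350 FPKM at the unstarred MANES_07G027000 and 160 FPKM at MANES_06G160100.

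On chromosome 2, MANES_02G124600 and MANES_02G124800 stood 5067 bases apart, both in the middle class. MANES_02G124600 stood at 9.89 and 65.4 FPKM in KU50 against 26.5 and 33.7 in Xinxuan048, beside the values of MANES_02G124800 given above. The short locus between them, MANES_02G124700 with 474 bases, stood at 0.146 and 7.62 FPKM in KU50 against 1.77 and 0.172 in Xinxuan048. Another member, MANES_02G125200, followed after 2 other listed loci with 0.984 and 5.30 FPKM in KU50 against 2.07 and 2.76 in Xinxuan048.

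On chromosome 4, MANES_04G007400 and MANES_04G007600 were both on the low side, with 7.79 and 61.4 FPKM in KU50 drought against 0.215 and 5.14 in Xinxuan048 drought. On chromosome 17, MANES_17G079600 and MANES_17G079800 were both unlisted in Xinxuan048, and the tags before them, MANES_17G079300 and MANES_17G079500, were listed in KU50 drought alone at 0.974 and 0.151 FPKM. All 4 tags were thus unlisted in Xinxuan048, whereas the next one, MANES_17G079900, had 11.4 and 20.9 FPKM there. Before the 4 tags, MANES_17G079100 was listed in KU50 control alone, at 0.0345 FPKM. Ahead of it, MANES_17G079000 stood at 0.492 and 23.4 FPKM in KU50 against 1.51 and 0.486 in Xinxuan048. MANES_17G078900 stood at 3.54 and 31.1 FPKM in KU50 against 0.638 and 2.56 in Xinxuan048. On chromosome 18, MANES_18G101800 and MANES_18G101900 lay 23 bases apart, both on the high side, with 0.657 and 1.15 FPKM in KU50 control and 4.31 and 13.0 in Xinxuan048 control. On chromosome 15 the pair was of mixed kind: MANES_15G028100 had 0.442 FPKM in Xinxuan048 control, below its 1.59 in KU50 control, while MANES_15G028300 had 3.24 against 0.511. The genes of these stretches that are not in a pair of adjacent members were chosen after their values were seen.

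Around MANES_15G129700, whose KU50 ratio was the second highest, 3 of the 4 neighbouring genes examined were also higher under drought in KU50. All 3 were past the KU50 limit, which 3.56% of eligible genes reached. MANES_15G129500 stood at 1.70 and 22.4 FPKM in KU50 against 2.05 and 4.22 in Xinxuan048, and MANES_15G129800 had 0.399 and 8.69 in KU50 and 1.04 and 2.66 in Xinxuan048. MANES_15G129300 was higher under drought in both cultivars, with 0.1998 and 14.1 FPKM in KU50 against 0.529 and 10.7 in Xinxuan048. The fourth, MANES_15G129400, was lower under drought in both, with 0.443 and 0.0920 FPKM in KU50 against 3.32 and 0.629 in Xinxuan048. The Xinxuan048 ratios of 0.77, 0.84 and 2.94 of the 3 stood beside -0.36 for MANES_15G129700. These neighbours were chosen after their values were seen.

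Members were shorter and weaker than eligible genes in general. Other genes past the KU50 limit were shorter too, but those past it in both cultivars were not weaker. The median locus length was 1883 bases, against 3750 for all eligible genes, 2264 for the 663 genes past the KU50 limit and 2299 for the 233 past it in both cultivars. With the eligible genes split by length into 5 groups of near equal size, the shortest, 500 to 1910 bases, held 67 members, 1.80% of its genes, and the longest, from 6852 bases, held 4, or 0.107%. Genes past the KU50 limit thinned out in the same way, from 7.57% in the shortest group to 1.53% in the longest. Among those genes the members made up 23.8% in the shortest group and 7.02% in the longest. By mean level, split in the same way, the lowest group, up to 3.53 FPKM, held 51 members and the highest, from 26.9 FPKM, held 14. Genes past the KU50 limit went from 194 to 114 between these groups, whereas those past it in both cultivars went from 37 to 65. The median of the mean level was 4.90 FPKM for members and 4.78 for the 142 genes with a Xinxuan048 ratio of 0.5 to 1. It was 7.20 for all 663, and 10.3 both for the 233 past the limit in both cultivars and for eligible genes. A short, weakly expressed locus collects few fragments, and the part of counting error in these shares was not tested. Members listed in all 4 libraries with a mean of at least 5 FPKM numbered 63.

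The membership of single genes depended on the scale of the libraries. Under TMM scaling 105 genes met the limits, of which 71 were among the 130. That is 54.6% of the 130 and 67.6% of the 105. With ratios taken relative to the median of the eligible genes, 115 genes met them, of which 66 were among the 130. Under the FPKM as deposited and all 4 other scalings together, 64 genes were members throughout, 36 of the low side, 16 of the middle and 12 of the high side. They include MANES_08G019800, MANES_03G090500, MANES_06G160100, MANES_04G067700, MANES_02G051600 and MANES_17G079800, but neither MANES_15G129700 nor MANES_02G124800. All 4 members unlisted in both Xinxuan048 libraries, MANES_17G079800 among them, are in the 64. Their Xinxuan048 ratios could not leave the window under these scalings. Every one of the 130 kept a KU50 ratio of at least 1 under TMM scaling, where the lowest was 1.19. In Xinxuan048, 20 of the 130 had a ratio of -0.5 or lower under that scaling.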

How the data were processed

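Leaf RNA sequencing of 4 cassava libraries was used. Per the submitters' processing notes, TopHat2 2.0.12 and Cufflinks were used, with no role or settings, and build, annotation and Cufflinks version stay unstated, as the sources used here do not give them. The authors deposited FPKM, 1 value per gene and library; fragment counts and depth are unknown, so no counting interval is given.

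Unlisted genes were set to 0. Starts in the files count from 0, since a start of 0 occurs, and are printed 1 higher; locus length is end minus start. Log2 ratios used FPKM + 1. Counts at least 2-fold apart used a log2 difference of 1. No test was run: each group has 1 library and the choice of members used all 4. TMM factors were computed on FPKM without weights. Python 3.11.15, pandas 2.3.3, numpy 2.4.6 and matplotlib 3.10.9 were used. The selection steps were run on values with known ratios, without noise and without weakly expressed genes. That checks the computation alone and not the membership of any gene. The members, lists and naming rule were chosen with earlier results of these data known. Named members had the highest KU50 ratios or drought levels, overall or by class, lay at a limit, or stood beside another member; others are marked. The 35 gene lists need descriptions, which the tags lack, and were not applied.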

Additional observations from a re-analysis of the deposited data

Results flagged for a closer look

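Opposite directions of the drought response drew attention in 40 members, higher under drought in KU50 and lower in Xinxuan048 on the log2 scale. They were 30.8% of the members, and 23.1% of eligible genes had a Xinxuan048 ratio below 0. These shares have unlike bases, because the window limits the Xinxuan048 ratios of the members and not those of all eligible genes. The count was 79 of the 130 under TMM, 72 under upper-quartile scaling and 97 relative to the median of eligible genes. Of eligible genes, 47.7%, 42.0% and 50% were below 0 in the same order. For MANES_08G002700, MANES_10G127300 and MANES_04G007400 the Xinxuan048 ratio was -0.03, -0.04 and -0.04, so their differences lie almost wholly in KU50. The difference was not tested, and the limits of the choice keep the difference below -1. The response of Xinxuan048 minus that of KU50, as a log2 difference, was -4.82 for MANES_15G129700, -4.17 for MANES_15G189500 and -4.11 for MANES_02G124800. It was -3.09 for MANES_10G127300, -3.06 for MANES_05G198600 and -3.04 for MANES_08G002700. Between -3 and -2 lay MANES_04G007600 at -2.76, MANES_15G028300 at -2.68, MANES_07G027900 at -2.23, MANES_07G027700 at -2.22 and MANES_04G007400 at -2.11. The remaining named members were MANES_06G010100 at -1.995, MANES_10G144200 at -1.90, MANES_18G101900 at -1.84, MANES_15G028100 at -1.73, MANES_04G122400 at -1.72 and MANES_06G043300 at -1.71.

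Loci outside the comparison also met the ratio and level limits. These numbered 29, of which 22 were placed loci under 500 bases and 7 were on unplaced sequences. Among them MANES_S012500, 550 bases on an unplaced sequence, stood at 38.7 FPKM in control and 262 under drought in KU50, against 42.7 and 55.9 in Xinxuan048. MANES_07G123200, 489 bases on chromosome 7, had 11.9, 193, 74.5 and 60.8 FPKM in the same order. Both were chosen after their values were seen.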

How the results depend on the processing

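With 1 library per group no library could be left out. No paired analysis was possible because the labels give no replicate numbers that groups share and no result comes from a test. Against 130 members as deposited, 61 genes met the limits with a pseudocount of 5, of which 39 were among the 130. There were 64 at a mean of at least 5 FPKM, 57 at a KU50 limit of 2 and 63 with a Xinxuan048 window of 0.25, the last 3 because stricter limits leave fewer genes. In the order pseudocount, mean, KU50 limit and window, members at least 2-fold lower in Xinxuan048 drought than in KU50 drought, 85 as deposited, numbered 47, 33, 45 and 45. Members at least 2-fold higher in Xinxuan048 control, 41 as deposited, numbered 9, 25, 25 and 19, and 88 with a pseudocount of 0.1. The low side, 67 as deposited, held 26 at a mean of 5 FPKM, 29 at the KU50 limit of 2 and 35 with the narrower window. The middle, 37, held 9, 19, 19 and 17. The high side, 26, held 7 with a pseudocount of 5, 9 at the KU50 limit of 2, 11 with the narrower window and 69 with a pseudocount of 0.1, so the balance of low against high side depends on the pseudocount. Adjacent members, 14, numbered 22 with a pseudocount of 0.1, 4 at a mean of 5 FPKM, and 6 each at the KU50 limit of 2 and the narrower window. The share of neighbours past the KU50 limit, 9.05%, was 0% with a pseudocount of 5. Where a pseudocount moved a value, the cause was not tested. The scalings moved none of these counts by over 1.5 times. KU50 ratios of the 37 named members changed sign under none of the scalings and pseudocounts tried. That is no measure of stability, since a pseudocount cannot change a sign and the members were chosen at 1.5 or more. Of the 130 members, 85 kept a KU50 ratio of at least 1.5 under TMM scaling and 39 with a pseudocount of 5. Counts by library order, length and chromosome, the share of neighbours and its alternatives were added after the data were seen.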
